A study of Mus musculus with 104 samples.

Results

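The transcription factors that set up and maintain the trophectoderm, the outer epithelium of the blastocyst, were followed through cultured mouse totipotent blastomere-like cells and the cell states derived from them. The set comprised 9 genes, Cdx2, Eomes, Elf5, Gata2, Gata3, Tfap2a, Tfap2c, Hand1 and Ascl2, chosen by symbol and not by their values, of 24958 genes counted in 104 bulk RNA-seq libraries. All 9 were present in each of the 18 count tables.

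The trophectoderm is the lineage from which the placenta grows, and it separates from the inner cell mass before implantation. In the outer cells of the mouse morula, inactive Hippo signalling lets the co-activator YAP work with TEAD4, which switches on Cdx2 and Gata3 while Pou5f1 (OCT4) comes to be confined to the inner cells. Cdx2, Eomes, Elf5 and the AP-2 factor Tfap2c then sustain trophoblast stem cells, whereas Hand1 and Ascl2 belong to later steps, Hand1 to trophoblast giant cells and Ascl2 to the spongiotrophoblast.

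The starting cells were labelled as wild-type TC1-GFP mouse embryonic stem cells, kept as pluripotent cells in S/L medium (mPSC, 3 libraries) or cultured in 2MYCP medium at passages 1, 2 and 4 (here early 2MYCP) and 6, 8, 14 and 19 (here established 2MYCP). A 2MYC series, in a medium whose name lacks the P, ran from passage 1 to 6. ZHBTc4 is an embryonic stem cell line whose Pou5f1 alleles are disrupted and whose only Pou5f1 is a transgene that doxycycline silences. The labels nevertheless give TC1-GFP and a wild-type genotype for the libraries titled ZHBTc4. Doxycycline was given to ZHBTc4 cells in 2MYCP (passages 1 to 4 and 12), in 2MYC (passages 2 and 3) and in S/L (passage 1), and 1 library in S/L and 1 titled 2MYCP at passage 12 had none. TELC and PreLC (3 libraries each, passages 0, 1 and 2) were both kept in SFH medium, blastoids (2 libraries) in TNKM medium and EB-TSC (1 library, passage 1) in TSC medium. A single library of wild-type ICR blastocysts at E3.5 was the embryo reference and held inner cell mass as well as trophectoderm. Courses of 2MYCP cells moved to SFH (23 libraries), S/L (20) or NTF (7) medium had 1 library at each time. Given as levels only were 2MYCP cultures in gelatin (passages 7 and 8), with ICG001 (passage 7) and with the genotype label Ctnnb1-knock out (passage 7). The same holds for cells in 2MYP medium (passages 7 and 8) and for blastomere-derived lines titled 4nM and 2-5nM (passages 4 and 5). Embryoid bodies from TC1 and from 2MYCP cells were labelled days 3, 8, 10 and 12. The labels do not expand 2MYCP, 2MYC, SFH, NTF, TNKM, TELC or PreLC. Nothing in them says that libraries within a group are separate cultures, and passages of a series stood in as replicates, so the p-values measure the spread between these libraries.

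Library totals ran from 1.04 M to 57.0 M counts with a median of 22.8 M (M, 1000000 counts), and levels are given as CPM, counts per 1000000 counts of the library. The smallest library was ZHBTc4 in 2MYC with doxycycline at passage 2, where 1 count is worth about 1 CPM. Some libraries stood apart from their labels. The library labelled ZHBTc4 2MYCP passage 12 without doxycycline had 86.6 CPM of Pou5f1, against 619.8 CPM in the ZHBTc4 library in S/L without it. In embryoid bodies from 2MYCP cells, the library labelled day 3 had 18.9 CPM of Pou5f1 and that labelled day 8 had 944 CPM. Among the mPSC libraries, replicate 2 carries a title of passage 0 of the 2MYCP series, and it alone had Hand1 at 9.57 CPM and Ascl2 at 16.3 CPM.

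Promoters of 7 of the 9 members were in the RefSeq table used here (GRCm38.p6). Of their 10 windows of 250 bases before the start, 4 held a match to a TEAD, GATA, AP-2 or octamer motif. Shown are 3 of these, from Cdx2, Gata2 and Gata3. The window not shown, of the first Elf5 start, held a TEAD match, while those of Cdx2 and Gata3 held none. The motifs searched on both strands were GGAATG for TEAD, AGATAA for GATA factors, GCCNNNGGC for AP-2 and ATGCAAAT for the octamer bound by Pou5f1. The letter strings do not overlap one another in these windows. Each sequence runs 5′ to 3′ on the gene's strand, and capitals mark the motif matches.
Cdx2: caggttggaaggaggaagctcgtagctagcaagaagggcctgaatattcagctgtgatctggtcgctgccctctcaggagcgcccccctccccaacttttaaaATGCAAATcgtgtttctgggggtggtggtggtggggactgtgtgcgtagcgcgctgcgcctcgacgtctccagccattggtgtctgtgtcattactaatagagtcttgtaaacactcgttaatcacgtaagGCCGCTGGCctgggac
Gata2, second start: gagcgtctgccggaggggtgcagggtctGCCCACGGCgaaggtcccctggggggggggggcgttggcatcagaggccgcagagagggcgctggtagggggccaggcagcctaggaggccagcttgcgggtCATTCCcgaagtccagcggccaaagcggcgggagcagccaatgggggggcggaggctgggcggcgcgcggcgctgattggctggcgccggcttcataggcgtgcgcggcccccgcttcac
Gata3: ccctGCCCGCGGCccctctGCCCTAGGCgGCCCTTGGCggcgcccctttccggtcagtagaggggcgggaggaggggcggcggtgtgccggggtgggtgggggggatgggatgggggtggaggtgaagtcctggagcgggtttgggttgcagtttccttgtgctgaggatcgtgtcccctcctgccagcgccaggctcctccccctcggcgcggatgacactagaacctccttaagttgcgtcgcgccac
The Cdx2 window (chr5:147307250-147307499, minus strand) held ATGCAAAT and an AP-2 match. The window of the second Gata2 start (chr6:88198414-88198663, plus strand) held an AP-2 match and the TEAD motif on the opposite strand. The Gata3 window (chr2:9878601-9878850, minus strand) held 3 AP-2 matches. Of all 32851 promoters in the table, 1.60% held the octamer, 12.6% the TEAD motif, 13.7% the AP-2 motif and 9.99% the GATA motif in the same window. These are letter matches, and no binding was measured. In the GENCODE M21 annotation (GRCm38) the genes lie at chr5:147300805-147307270 (Cdx2), chr9:118478212-118486132 (Eomes), chr2:103411688-103450989 (Elf5), chr6:88193891-88207032 (Gata2), chr2:9857078-9890034 (Gata3), chr13:40715302-40738376 (Tfap2a), chr2:172549593-172558622 (Tfap2c), chr11:57828705-57832818 (Hand1) and chr7:142966829-142969264 (Ascl2).

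The blastocyst held the highest Cdx2, Eomes, Elf5 and Tfap2a of all 104 libraries. Cdx2 stood at 553.7 CPM, Gata3 at 419.8, Eomes at 192, Tfap2c at 158, Tfap2a at 139, Gata2 at 65.7, Elf5 at 5.77, Hand1 at 5.70 and Ascl2 at 0.14 CPM. Per kilobase of annotated exon, the scale on which genes can be compared, the order was Cdx2 (245 CPM per kb), Gata3 (105.5), Eomes (46.3), Tfap2c (43.0), Tfap2a (28.3), Gata2 (12.2), Hand1 (2.86), Elf5 (0.98) and Ascl2 (0.09). A single library gives no spread, so neighbours in that order cannot be told apart by replicate error. The 13 genes listed for differentiated trophoblast summed to 9.8 CPM there, with Prl3d1, Prl2c2, Tpbpa, Gcm1, Synb, Dlx3, Cts7 and Ctsq at 0.

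No cultured library had more than 73.0 CPM of Cdx2, the homeobox factor required for the trophectoderm. Eomes, a T-box factor of trophoblast stem cells that also marks the primitive streak and definitive endoderm, came closest in the embryoid bodies at day 8 (135 CPM) and the SFH course at 96 h (122 CPM). Gata2 went past the blastocyst in ZHBTc4 cells with doxycycline, except in 2MYCP at passage 4 (57.3 CPM) and in S/L, where it was level (65.8 CPM). Gata3 (788 CPM in 2MYC) and Tfap2c (162 CPM in S/L) went past it in a single such library each. Ascl2 was above its blastocyst level in all groups. Hand1 was above its own in a blastoid library and in ZHBTc4 cells with and without doxycycline, except 2MYC passage 2 (1.92 CPM). It was also above it in mPSC replicate 2 (9.57 CPM) and in embryoid bodies, except TC1 day 3 (0.68 CPM) and 2MYCP day 8 (0.52 CPM). The ETS factor Elf5, a gatekeeper of trophoblast stem cell identity, stayed at or under 2.95 CPM in every cultured library. It was at 0 in all libraries of 2MYP (2 libraries in a medium whose name lacks the C) and of EB-TSC. There 0 counts allow up to 0.139 and 0.236 CPM (3 counts over the group, counting error only). These floors take counts as independent, although most low counts were even.

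**Figure D1:**
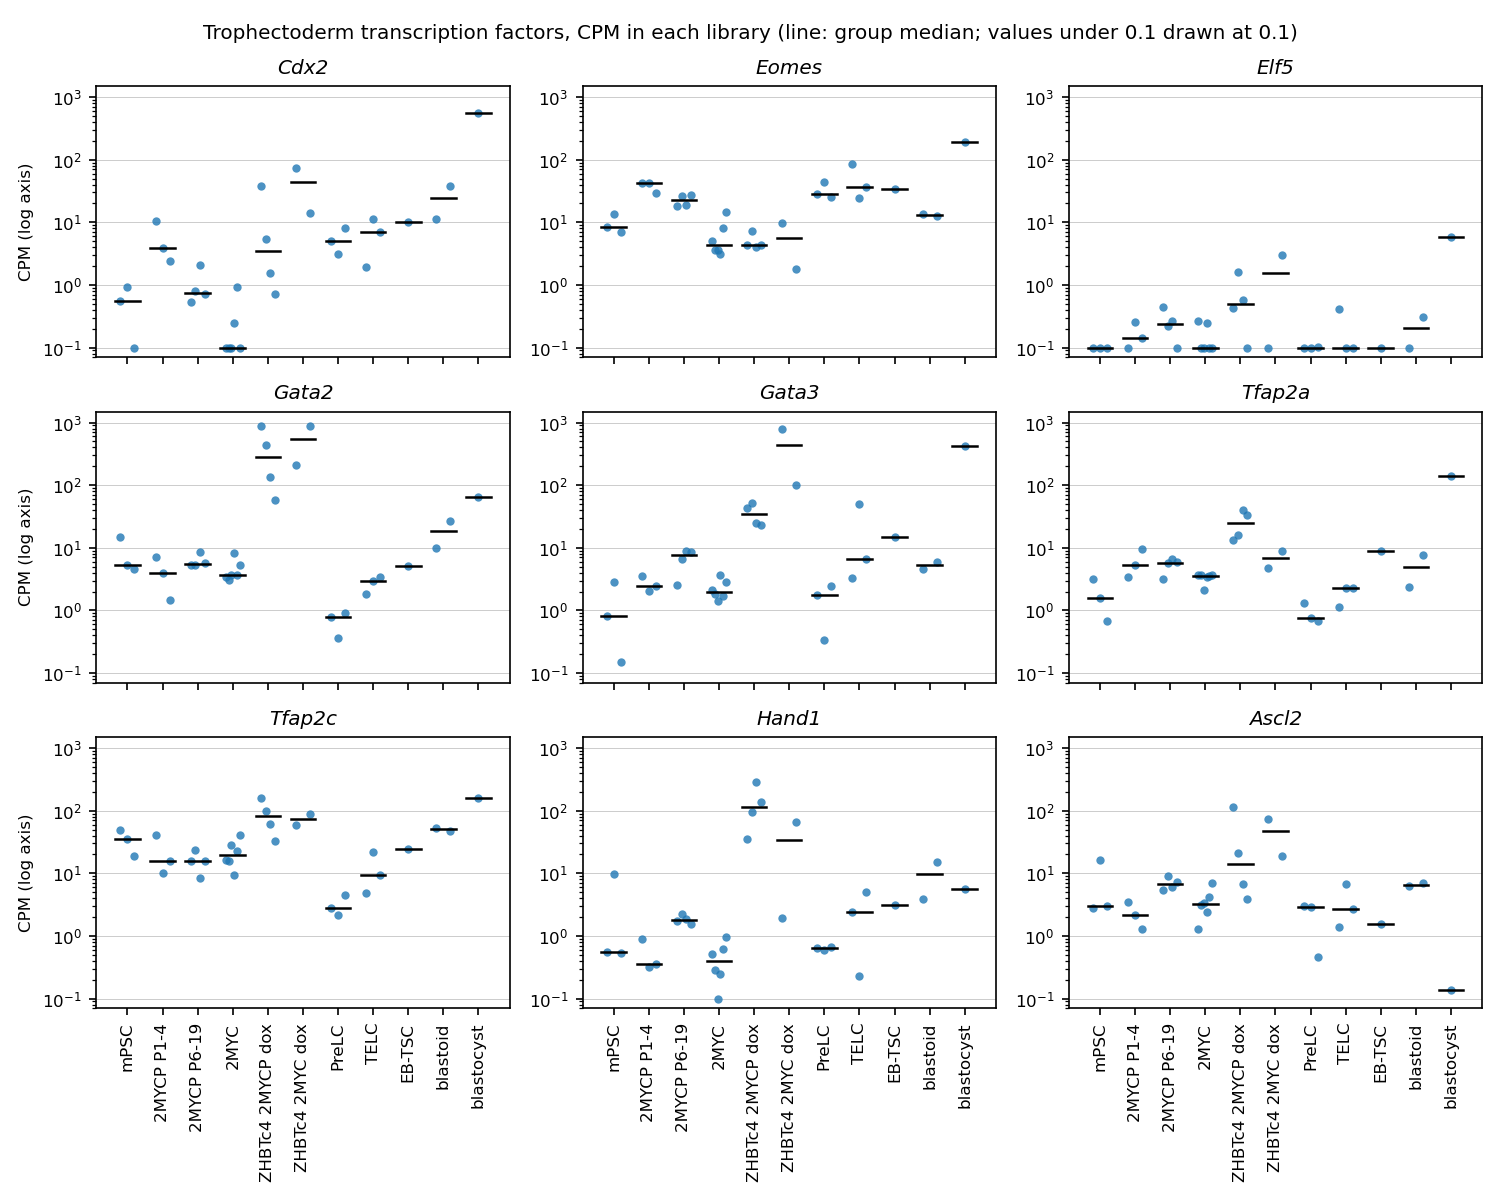
CPM of each of the 9 factors (log axis, values under 0.1 drawn at 0.1) in every library of 11 groups. Each point is a library and each line the group's median. Cdx2, Eomes, Elf5 and Tfap2a were highest in the blastocyst, and Gata2, Hand1 and Ascl2 in ZHBTc4 cells with doxycycline.

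The first comparison asked what happens to these factors when Pou5f1 is switched off in 2MYCP medium. Pou5f1 itself was at 16.7, 5.31, 0.19 and 0.72 CPM in ZHBTc4 with doxycycline at passages 1 to 4, and at 969.5, 1124 and 1122 CPM in early 2MYCP cells. It fell by 7.56 ± 1.30 on the log2 scale (SE, n = 4 and 3, adjusted p = 0.0068). Hand1, Gata2, Ascl2, Gata3 and Tfap2a rose and Eomes fell, which makes 5 and 1 of the 9 tested. Over all genes tested 13% rose and 12% fell. A gene is said to rise, fall or pass the test where edgeR's quasi-likelihood test gave a Benjamini-Hochberg adjusted p under 0.05 over all genes tested.

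The GATA zinc-finger factors, which act beside and downstream of Cdx2 in the trophectoderm, were high in all 4 libraries with doxycycline. Gata2 stood at 866, 435, 137 and 57.3 CPM at passages 1 to 4, against 7.04, 3.95 and 1.46 CPM in early 2MYCP. The groups were far apart, and the difference was 6.51 ± 1.15 on the log2 scale (adjusted p = 0.0073). From passage 1 to 4 the level was lower at each later passage, but the single passage 12 library, outside the test, held 505 CPM. Gata3 was at 43.7, 51.5, 25.1 and 22.7 CPM, against 3.52, 2.01 and 2.41 CPM. Its groups did not overlap either, and it rose by 3.76 ± 0.44 (adjusted p = 0.0020), yet its highest library held 51.5 CPM where the blastocyst held 419.8.

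Of the 2 AP-2 factors, Tfap2a, better known from neural crest and surface ectoderm, had 13.3, 16.1, 40.8 and 33.8 CPM with doxycycline and 3.37, 5.22 and 9.71 CPM in early 2MYCP. All 4 libraries were above all 3 controls, and Tfap2a rose by 2.09 ± 0.54 (adjusted p = 0.025). Tfap2c, which embryonic stem cells also express, had 157, 100.4, 61.0 and 33.1 CPM against 41.1, 9.97 and 15.9 CPM. The groups overlapped, and the difference of 1.98 ± 0.65 did not pass (adjusted p = 0.054). The AP-2 pair ran opposite ways over the passages, Tfap2c highest at passage 1 and Tfap2a at passages 3 and 4, in single libraries at each passage.

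Hand1 showed the largest difference among the members. Its levels were 34.8, 95.8, 287 and 137 CPM with doxycycline and 0.89, 0.32 and 0.35 CPM in early 2MYCP, which gave 8.11 ± 0.92 on the log2 scale (adjusted p = 0.0018). Ascl2, an imprinted bHLH factor, had 113, 20.96, 6.67 and 3.86 CPM against 3.47, 2.17 and 1.28 CPM. It rose by 3.99 ± 1.23 (adjusted p = 0.045), with the lowest library only just above the highest control. Hand1 and Ascl2 were thus highest at different passages.

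Of the factors of the trophoblast stem cell state beside Tfap2c, Eomes fell, while Cdx2 and Elf5 did not pass, with wide errors. Cdx2 was at 38.3 CPM at passage 1 and then at 5.35, 1.54 and 0.72 CPM, while early 2MYCP had 10.7, 3.85 and 2.41 CPM. These ranges overlapped, and the difference of 1.03 ± 1.25 did not pass (adjusted p = 0.57). Eomes was at 4.36, 7.22, 3.98 and 4.30 CPM against 42.5, 43.0 and 29.6 CPM, so every library with doxycycline was below every control. It fell by 2.95 ± 0.33 on the log2 scale (adjusted p = 0.0017). Elf5 stayed at 0.08 to 1.58 CPM and did not pass (2.25 ± 1.16, adjusted p = 0.18).

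The controls were labelled as the TC1-GFP line without doxycycline, so line and doxycycline cannot be told apart here. The ZHBTc4 library in S/L without doxycycline was also tried as the only control. Its medium differs too, and a single control library gives no spread of its own, so that fit cannot decide which genes pass. That library already held 71.4 CPM of Hand1, 81.2 CPM of Tfap2c and 19.2 CPM of Ascl2. On the log2 scale the differences against it were -6.86 for Pou5f1, the silenced gene itself, 0.87 for Hand1 and 0.83 for Ascl2. They were 4.80 for Gata2, 2.79 for Gata3, 2.15 for Tfap2a and -2.76 for Eomes. Tfap2a no longer passed without doxycycline passage 3 (1.78, adjusted p = 0.062) or 4 (1.95, 0.053), or without early passage 1 (1.79, 0.095) or 2 (1.99, 0.10). Ascl2 no longer passed without doxycycline passage 2 (4.18, adjusted p = 0.057) or without early passage 1 (4.39, 0.11), 2 (3.95, 0.14) or 4 (3.67, 0.15). Tfap2c came past the threshold without doxycycline passage 4 (2.25, adjusted p = 0.035) or early passage 1 (2.76, 0.044). It also passed without the count filter (adjusted p = 0.044), with DESeq2 (0.0060), with 9 groups in 1 fit (0.010) and against all 7 2MYCP libraries (0.0011).

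Other trophoblast genes changed in the same comparison. Of 11 genes of the trophectoderm epithelium, 8 rose and none fell, with a median of 4.45 on the log2 scale beside 0.06 for all genes. The keratins Krt18 (7.59), Krt7 (6.82) and Krt8 (5.96) led them. Their summed level was 5645 to 12298 CPM with doxycycline and 1041 to 1274 CPM in early 2MYCP, beside 5487 CPM in the blastocyst. Of 13 genes of differentiated trophoblast 7 could be tested, and 6 of them rose, among them Plac1 (7.38), the syncytin Syna (5.41) and Gcm1 (5.28), the factor that drives syncytiotrophoblast formation. Of 14 genes of the trophoblast stem network, 5 rose and 3 fell. Rhox9 (6.89) and Rhox6 (6.85) were the highest, and those that fell were Esrrb (-6.65), Klf5 (-1.99) and Bmp4 (-1.62), all of which embryonic stem cells use too. All 6 pluripotency genes fell (median -5.97). Hand1 and Tfap2a also mark mesoderm and ectoderm, and of the lists for those layers 1 of 6 mesoderm genes rose and 1 fell, and none of 5 ectoderm genes passed. Fibroblast genes summed to 355 to 1247 CPM with doxycycline and 386 to 685 CPM in early 2MYCP, and none of 6 passed.

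The order of the factors under doxycycline was not that of the single blastocyst library. Per kilobase of exon, mean levels over the 4 libraries were 69.4 CPM per kb for Hand1, 69.3 for Gata2, 23.9 for Tfap2c, 22.3 for Ascl2, 8.98 for Gata3, 5.30 for Tfap2a, 5.08 for Cdx2, 1.2 for Eomes and 0.11 for Elf5. Ranges overlapped widely between neighbours in this order. Passage 1 carried Ascl2, which without it had a mean of 6.47 CPM per kb, and Cdx2, which had 1.12. In the blastocyst Cdx2 headed the order and Hand1 stood near its end. In established 2MYCP the order was led by Eomes (5.45 CPM per kb), Tfap2c (4.30) and Ascl2 (4.30), in TELC by Eomes (11.7), Gata3 (4.99) and Tfap2c (3.25), although without TELC passage 1 Gata3 had 1.25 and lay below Cdx2 (2.00), and in blastoids by Tfap2c (13.8), Cdx2 (10.9) and Hand1 (4.83).

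**Figure D2:**
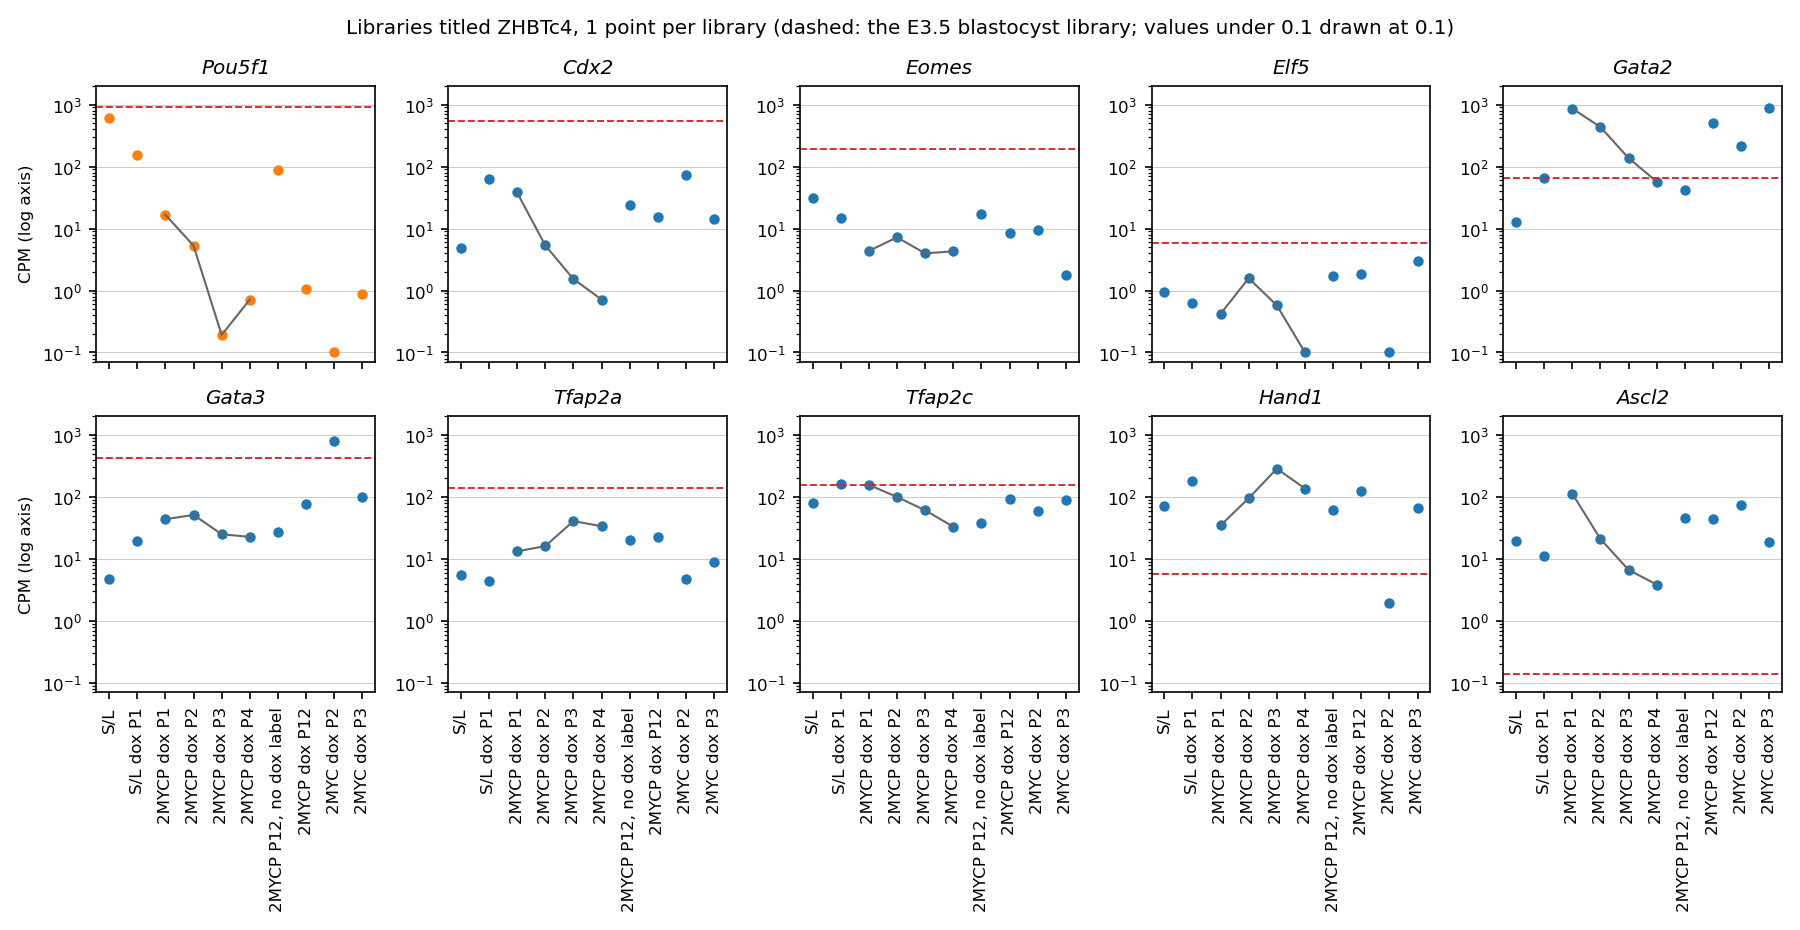
CPM (log axis) of Pou5f1 and the 9 factors in the 10 ZHBTc4 libraries, by medium, passage and doxycycline, 1 point a library. The dashed line is the blastocyst. Gata2 with doxycycline in 2MYCP lay at 866 to 57.3 CPM from passage 1 to 4 and at 505 CPM at passage 12. Cdx2 was never above 73.0 CPM in any ZHBTc4 library.

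The remaining ZHBTc4 libraries were single and are given as levels. In S/L medium, doxycycline for 1 passage left Pou5f1 at 155 CPM, and Cdx2 stood at 63.3 CPM against 4.82 CPM without it. Gata2 was at 65.8 against 12.6 CPM and Hand1 at 179 against 71.4 CPM in the same pair. Eomes was lower with doxycycline there too, at 14.8 against 31.5 CPM. At passage 12 in 2MYCP with doxycycline, Gata2 was at 505 CPM, Gata3 at 76.3, Hand1 at 123, Ascl2 at 43.5 and Cdx2 at 15.6 CPM. The library labelled passage 12 without doxycycline held all 9 factors, from 1.71 CPM of Elf5 to 61.8 CPM of Hand1, and 15663 CPM of the epithelium genes. It entered no comparison.

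Doxycycline was also given in 2MYC medium. ZHBTc4 in 2MYC at passages 2 and 3 was compared with the 4 libraries in 2MYCP, and 1 of 9 members rose and none fell, where 2.59% of all genes tested rose and 1.22% fell. Gata3 had 788 and 99.4 CPM, against at most 51.5 CPM in 2MYCP, and was 4.30 ± 0.75 higher on the log2 scale (n = 2 and 4, adjusted p = 0.030). The call rested on the library of 1.04 M counts: without it the difference was 1.87 (adjusted p = 0.22). It was also lost without 2MYCP passage 2 (4.54, adjusted p = 0.12), 3 (4.18, 0.057) or 4 (4.14, 0.052). Cdx2 had 73.0 and 14.2 CPM in 2MYC and 0.72 to 38.3 CPM in 2MYCP, ranges that overlapped, and did not pass (2.54 ± 1.32, adjusted p = 0.24). Without 2MYCP passage 1, which held the 38.3 CPM, Cdx2 passed at 4.81 (adjusted p = 0.023). Tfap2a was lower in both 2MYC libraries, at 4.80 and 8.79 CPM, than in all 4 in 2MYCP, and did not pass (-1.36 ± 0.67, adjusted p = 0.22). TMM scaling, which the fits use, raised these differences by 0.55 over those of the printed CPM, and the median of all genes was -0.31.

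Pluripotent cells and established 2MYCP cells were compared next. Tfap2c alone of 8 tested members fell and none rose, where 8.41% of all genes tested rose and 8.41% fell. Tfap2c had 49.9, 35.2 and 19.1 CPM in mPSCs and 15.6, 23.7, 8.51 and 15.5 CPM in established 2MYCP at passages 6, 8, 14 and 19. The ranges overlapped, and the fall was 1.33 ± 0.39 (n = 4 and 3, adjusted p = 0.0485). It was lost without mPSC replicate 1 (-1.04, adjusted p = 0.12) or without any of the 4 established passages (-1.33, -1.55, -1.13 and -1.30, adjusted p = 0.11, 0.063, 0.12 and 0.13 in passage order). Eomes was higher in every established library (18.4, 26.2, 18.8 and 27.2 CPM) than in any mPSC library (8.38, 13.8 and 7.04 CPM). It did not pass (0.98 ± 0.34, adjusted p = 0.076). Tfap2a was likewise above the mPSC range of 0.67 to 3.16 CPM in each, at 3.21 to 6.71 CPM, and did not pass (1.44 ± 0.55, adjusted p = 0.098).

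One mPSC library, replicate 2, bears on 4 of the members. Without it Eomes passed at 1.44 (adjusted p = 0.0036) and Gata3 at 4.07 (adjusted p = 0.0067), and 5 members in all were called. Hand1 and Ascl2 changed sign without it, from -1.28 to 1.66 and from -0.38 to 1.14, and passed then (adjusted p = 0.036 and 0.031), while neither passed in the full comparison. Cdx2 was at 0.55, 0.91 and 0 CPM in mPSCs and at 0.53, 0.79, 2.11 and 0.72 CPM in established 2MYCP, a level near which no difference was detectable (0.88 ± 1.05, adjusted p = 0.59). Markers of other cell types were above mPSCs as well: 3 of 7 primitive endoderm, 3 of 6 fibroblast, 2 of 7 mesoderm and 2 of 5 ectoderm genes rose, and none of these fell. Their part in the result was not tested. TMM scaling put the differences of this comparison 0.19 below those of the printed CPM.

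Along the passages the earliest 2MYCP libraries stood out. Cdx2 was at 10.7 CPM at passage 1, 3.85 at passage 2, 2.41 at passage 4 and between 0.53 and 2.11 CPM from passage 6 on. It was the only one of 8 tested members to follow passage, falling by 0.97 ± 0.25 on the log2 scale for each unit of log2(passage + 1) (7 libraries, adjusted p = 0.0484). Over all genes 4.89% rose and 2.33% fell with passage. The trend was lost without passage 1 (-0.64, adjusted p = 0.25), 2 (-0.999, 0.089), 8 (-0.93, 0.072), 14 (-1.30, 0.052) or 19 (-0.95, 0.19). Gata3 was at 2.01 to 3.52 CPM up to passage 6 and at 6.64 to 8.82 CPM after it, and did not pass (0.55 ± 0.17, adjusted p = 0.071), but did without passage 1 (0.88, adjusted p = 0.048).

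In 2MYC medium Eomes was lower than in 2MYCP. It had 42.5, 43.0, 29.6 and 18.4 CPM in 2MYCP at passages 1, 2, 4 and 6, and 4.97, 3.67, 3.13 and 14.4 CPM in 2MYC at the same passages. Passages 3 and 5 of 2MYC, left out of the test as unmatched, had 3.54 and 8.01 CPM. The groups did not overlap, and Eomes was 2.36 ± 0.43 higher in 2MYCP on the log2 scale (n = 4 and 4, adjusted p = 0.0057). It was the only called member of 6 tested, where 7.08% of all genes were higher and 7.13% lower. Cdx2 was too low for the count filter, and its counts are given instead. It had 215, 121, 102 and 12 counts in 2MYCP (450 in 116.6 M) and 0, 0, 2 and 0 in 2MYC (2 in 29.0 M). The ratio was 55.9 (95% exact counting interval 15.4 to 463), and most Cdx2 reads of 2MYCP were those of the earliest passages. Such an interval takes counts as independent, although most low counts here were even, and leaves out the spread between passages. It is therefore too narrow. With 2MYC passages 3 and 5 added, which had 0 and 6 counts, 2MYC held 8 counts in 42.5 M and the ratio was 20.5 (10.3 to 47.8). Tfap2c (-0.02 ± 0.46), Gata3 (-0.04 ± 0.38), Gata2 (-0.23 ± 0.48), Tfap2a (0.54 ± 0.39) and Ascl2 (-0.18 ± 0.55) did not pass.

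Cells in SFH medium were next set against established 2MYCP. In TELC, Cdx2 and Eomes rose and none of 8 tested members fell, where 21.6% of all genes tested rose and 17% fell, so the members' share was near that of all genes. Cdx2 had 1.96, 11.1 and 7.09 CPM at passages 0, 1 and 2, against 0.53 to 2.11 CPM. It was higher by 3.40 ± 0.77 on the log2 scale (n = 3 and 4, adjusted p = 0.011). Eomes had 84.7, 24.6 and 36.5 CPM against 18.4 to 27.2 CPM and rose by 1.63 ± 0.34 (adjusted p = 0.0080). Each gene's ranges met in 1 library, passage 0 for Cdx2 and passage 1 for Eomes. TMM scaling put these differences 0.58 above those of the printed CPM, and Cdx2 and Eomes were higher on both scales. With the 0 h libraries of the courses as controls in place of the established passages neither passed (1.86, adjusted p = 0.12, and 1.14, adjusted p = 0.072).

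Gata3 showed how far the 3 TELC libraries differed, at 3.24, 49.6 and 6.69 CPM. It did not pass (2.38 ± 0.93, adjusted p = 0.073), but did without passage 0 (2.81, adjusted p = 0.0092). Hand1, at 2.37, 0.23 and 5.11 CPM, came past the threshold without passage 1 (1.54, adjusted p = 0.040). Gata2, at 1.85 to 3.40 CPM, and Tfap2a, at 1.13 to 2.29 CPM, lay below all established libraries and did not pass (-0.55 ± 0.44, adjusted p = 0.34, and -0.85 ± 0.49, adjusted p = 0.20). The highest TELC library held 11.1 CPM of Cdx2 and 49.6 CPM of Gata3, beside 553.7 and 419.8 CPM in the blastocyst.

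Epithelium genes changed in TELC as well. Of 11, 8 rose and 1 fell (median 2.64), led by Krt18 (6.49), the claudin Cldn7 (6.36) and Krt8 (4.70), with the aquaglyceroporin Aqp3 falling (-2.63). Of the 14 stem network genes 3 rose, Rhox6 (3.73), Rhox9 (2.96) and Plet1 (1.47), and 3 fell, Esrrb (-3.21), Klf5 (-2.15) and Rbpj (-1.24). Primitive endoderm genes rose in 4 of 7, with Foxa2 (4.57), Sox17 (3.67) and Hnf4a (2.68), and summed to 211 to 1345 CPM against 92 to 457 CPM. Eomes is active in endoderm as well as in trophoblast, and in bulk RNA more cells of a type and more RNA per cell cannot be told apart. Fibroblast genes fell in 3 of 6. The part of these cells in the members' levels was not tested.

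**Figure D3:**
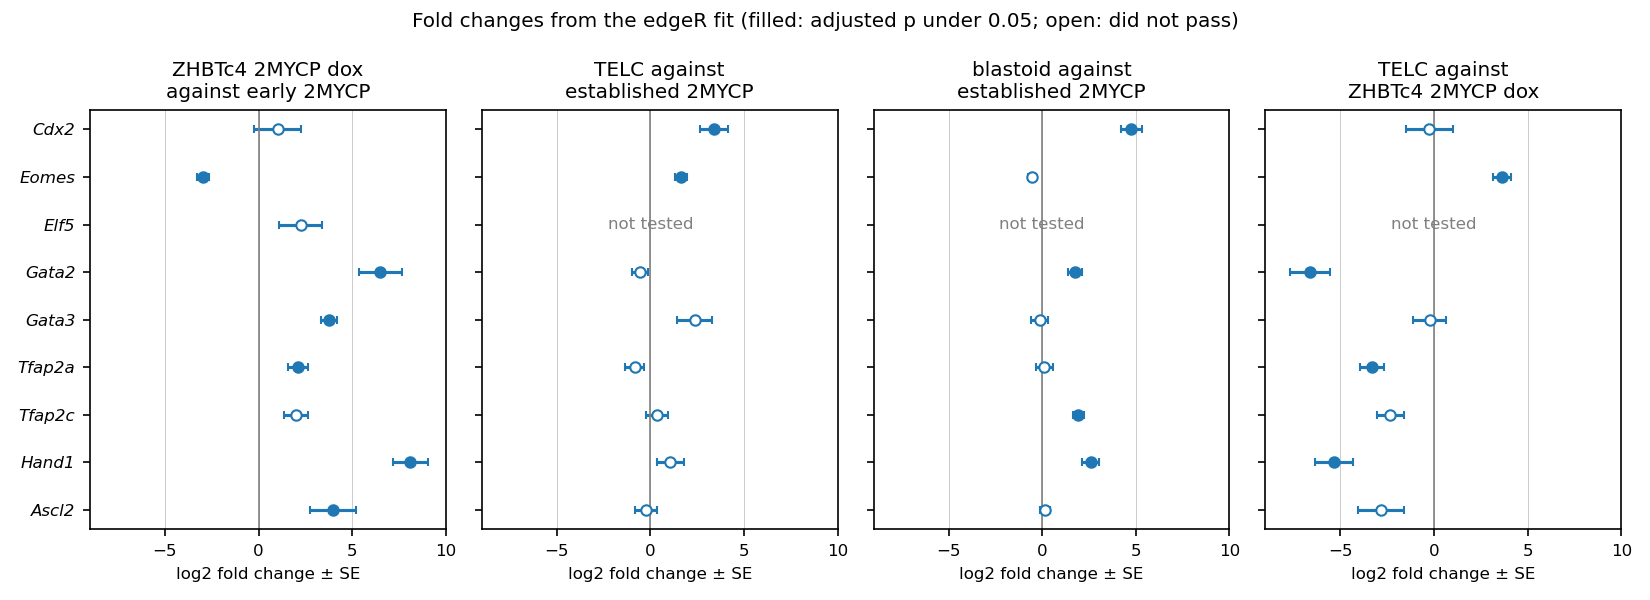
Log2 fold change with its standard error for each factor in 4 comparisons, filled where the adjusted p was under 0.05. Hand1 (8.11) and Gata2 (6.51) lay far to the right with doxycycline, Cdx2 (3.40 and 4.77) in TELC and blastoids, and Eomes fell with doxycycline (-2.95) and rose in TELC (1.63).

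TELC and PreLC, which shared a medium, could not be separated by the test. In edgeR 0 genes and 0 members were called (0% of genes higher and 0% lower), while 1738 genes had an unadjusted p under 0.05 and DESeq2 called 489 genes, 1 of them a member. Gata2 (1.85 to 3.40 CPM against 0.36 to 0.92), Gata3 (3.24 to 49.6 against 0.33 to 2.48) and Tfap2c (4.84 to 21.7 against 2.20 to 4.44) were nonetheless higher in all 3 TELC libraries than in all 3 of PreLC. The differences were 2.13 ± 0.72, 3.97 ± 1.23 and 2.14 ± 0.72 (n = 3 and 3, adjusted p = 0.39 for each). All 3 were called without TELC passage 0 (2.43, 4.52 and 2.59, adjusted p = 0.045, 0.023 and 0.022), when 3404 genes were. Cdx2 (3.10 to 8.05 CPM) and Eomes (25.4 to 44.6 CPM) in PreLC spanned much the same levels as in TELC. PreLC held 2462 to 2588 CPM of the primitive endoderm genes against 211 to 1345 in TELC, and TELC 1996 to 3877 CPM of the epithelium genes against 1325 to 2577.

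EB-TSC, the single library in TSC medium, had 10.2 CPM of Cdx2, 34.4 of Eomes, 14.7 of Gata3, 24.4 of Tfap2c, 8.80 of Tfap2a, 5.03 of Gata2, 3.14 of Hand1 and 1.57 CPM of Ascl2. The TELC libraries held Cdx2 at 1.96 to 11.1 CPM, Eomes at 24.6 to 84.7, Gata3 at 3.24 to 49.6 and Tfap2c at 4.84 to 21.65 CPM. They held Tfap2a at 1.13 to 2.29, Gata2 at 1.85 to 3.40, Hand1 at 0.23 to 5.11 and Ascl2 at 1.39 to 6.64 CPM. EB-TSC lay above these ranges for Tfap2c, Tfap2a and Gata2, and within them for Cdx2, Eomes, Gata3, Hand1 and Ascl2. In EB-TSC Elf5 was at 0 and Pou5f1 at 442 CPM. Its epithelium genes summed to 5984 CPM, close to the blastocyst's 5487 CPM.

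TELC and ZHBTc4 with doxycycline in 2MYCP differed in which factors they held. Line (by title), doxycycline and medium all differed between these groups, so their parts cannot be told apart. Eomes was higher in TELC by 3.64 ± 0.46 (24.6 to 84.7 against 3.98 to 7.22 CPM, adjusted p = 0.0095). Gata2 was lower by 6.64 ± 1.06 in TELC on the log2 scale, Hand1 by 5.34 ± 1.02 and Tfap2a by 3.30 ± 0.64 (n = 3 and 4, adjusted p = 0.019, 0.033 and 0.034), and for all 4 genes the groups did not overlap. Of 8 members tested 1 rose and 3 fell, where 2.3% of all genes rose and 0.996% fell. Cdx2 (-0.24 ± 1.25, adjusted p = 0.91) and Gata3 (-0.23 ± 0.89, adjusted p = 0.89) did not pass. Tfap2c was lower in every TELC library (4.84 to 21.65 against 33.1 to 157 CPM) but did not pass (-2.34 ± 0.73, adjusted p = 0.10). Ascl2 overlapped and did not pass either (-2.82 ± 1.23, adjusted p = 0.19). Both passed with DESeq2 (adjusted p = 0.015 and 0.049), with 9 groups in 1 fit (0.0052 and 0.029) and with passage as a block (5.4e-05 and 1.8e-05). TMM scaling put the differences 0.41 above those of the printed CPM.

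The calls of this comparison apart from Eomes depended on single libraries. Gata2 was lost without TELC passage 1 (-6.78, adjusted p = 0.070) or 2 (-6.80, 0.083) or doxycycline passage 2 (-6.57, 0.053). Tfap2a was lost without TELC passage 1 (-3.56, 0.084) or 2 (-3.43, 0.12), or without doxycycline passage 2 (-3.48, 0.066), 3 (-3.00, 0.10) or 4 (-3.16, 0.083). Hand1 was lost without the same 5 libraries (-4.84, -6.36, -5.49, -4.72 and -5.37, adjusted p = 0.075, 0.070, 0.070, 0.080 and 0.065). None changed direction. Of the 11 epithelium genes 1 passed, Cldn4 (-3.17), and 3 of 7 primitive endoderm genes were higher in TELC.

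Blastoids, structures grown to resemble the blastocyst, had more Cdx2 than established 2MYCP cells. Cdx2 was at 11.1 and 38.0 CPM, against 0.53 to 2.11 CPM in established 2MYCP, and rose by 4.77 ± 0.58 on the log2 scale (n = 2 and 4, adjusted p = 0.00029). Gata2, Tfap2c and Hand1 rose too, which makes 4 of 8 tested and none that fell. Over all genes tested 23.9% rose and 24.3% fell. Tfap2c was at 53.4 and 48.1 CPM against 8.51 to 23.7 CPM (1.93 ± 0.30, adjusted p = 0.00098). Hand1 was at 3.87 and 15.4 CPM against 1.53 to 2.27 CPM (2.59 ± 0.47, adjusted p = 0.0021). Gata2 was at 9.74 and 27.2 CPM against 5.37 to 8.55 CPM (1.77 ± 0.37, adjusted p = 0.0046). In all 4 genes both blastoid libraries lay above all 4 controls.

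The second blastoid library was the higher in Cdx2, Gata2, Hand1 and Tfap2a (7.53 against 2.37 CPM). Without it Gata2 did not pass (0.92, adjusted p = 0.080). Eomes was at 13.4 and 12.7 CPM, below every established library, and did not pass (-0.55 ± 0.21, adjusted p = 0.060), but did without passage 6 (-0.66, adjusted p = 0.036). Gata3, at 4.58 and 5.85 CPM, did not pass (-0.12 ± 0.46), nor did Tfap2a (0.10 ± 0.46) or Ascl2 (0.16 ± 0.27). TMM scaling put the differences 0.24 above those of the printed CPM. The epithelium genes rose in 10 of 11 (median 2.62), with Cldn7 (6.11) and Krt18 (5.38), and Aqp3 fell (-1.92). Primitive endoderm genes rose in 5 of 7, all 6 pluripotency genes fell and all 6 fibroblast genes fell, the last to a sum of 12.7 and 16.0 CPM from 919 to 1424 CPM. The comparisons with mPSC, TELC and blastoids share the 4 established libraries.

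The courses followed 2MYCP cells over 4 days after a change of medium, with 1 library a time and a smooth curve of hours. In SFH medium, Eomes, Tfap2c and Ascl2 rose by 92 h and no member of 9 fell, where 21.5% of all genes rose and 19.7% fell. Eomes was at 24.7 CPM at 0 h, at a median of 26.9 (17.5 to 37.1) from 28 to 60 h and of 44.8 (30.8 to 122) from 64 h on. The fitted rise was 1.37 ± 0.32 (adjusted p = 0.00090). It leaned on the 96 h library of 122 CPM, without which it was 0.55 (adjusted p = 0.13). That library also held 114 CPM of the mesoderm genes, against 5.60 to 17.9 CPM from 64 to 92 h. The part of such cells in the Eomes level was not tested. Ascl2 was at 0.52 CPM at 0 h, at a median of 7.51 (2.84 to 9.79) in the middle of the course and of 5.62 (1.27 to 9.57) late. It rose by 2.15 ± 0.57 (adjusted p = 0.0029).

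Tfap2c had a trough in SFH. It stood at 16.7 CPM at 0 h, 0.37 CPM at 20 h and 26.4 CPM at 92 h, and the fitted change from 0 h to 92 h was 1.14 ± 0.46 (adjusted p = 0.046). That call was lost in 18 of the 23 fits that leave out a library, including those without 92 h (0.83, adjusted p = 0.18) and 4 h (1.02, 0.11). Cdx2 never passed 4.22 CPM in SFH (-0.05 ± 0.74), and Gata3 was at 0.76 to 7.01 CPM throughout (0.06 ± 0.62). TELC at passages 1 and 2, in the same medium, had more Cdx2 (11.1 and 7.09 CPM) than any library of the course. Tfap2a did not pass (-1.70 ± 0.73, adjusted p = 0.060), but did without 0 h (-2.09, 0.038), 12 h (-1.90, 0.039) or 68 h (-1.75, 0.026).

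In S/L medium the members split. Gata2, Tfap2c, Hand1 and Ascl2 rose and Elf5, Gata3 and Tfap2a fell, 4 and 3 of 9, where 21.3% of all genes rose and 19.3% fell. Tfap2a was at 11.9 CPM at 0 h and 1.99 CPM at 92 h, with medians of 8.72, 3.10 and 2.61 CPM from 0 to 24, 28 to 60 and 64 h on. It fell by 2.10 ± 0.28 on the log2 scale (adjusted p = 3.28e-06). Gata3 was at 1.96 CPM at 0 h, 4.79 CPM at 12 h, 0.20 CPM at 80 h and 1.25 CPM at 92 h, and its fitted curve fell by 1.98 ± 0.59 (adjusted p = 0.0095), which was lost without the libraries at 72, 80 and 88 h (-1.28, adjusted p = 0.064). Elf5 was at 0.14 CPM at 0 h, 1.62 CPM at 8 h and 0.042 to 0.27 CPM from 64 h on. Its fitted fall from 0 h to 92 h (-3.43 ± 0.999, adjusted p = 0.0086) is that of a curve through the early peak, since the 0 h library lay within the late range. The call was lost without 92 h (-2.66, adjusted p = 0.066).

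Tfap2c was also lowest in mid-course in S/L, going from 15.9 CPM at 0 h to 3.70 CPM at 36 h and 32.7 CPM at 88 h, and rose by 1.56 ± 0.30 (adjusted p = 0.000245). Gata2 rose by 2.12 ± 0.37 (0.89 CPM at 0 h, median 3.15 CPM late, adjusted p = 8.10e-05) and Hand1 by 2.61 ± 0.55 (0.46 CPM at 0 h, median 3.27 CPM late, adjusted p = 0.00063). Ascl2, at 1.49 ± 0.58 (adjusted p = 0.045), rested on the libraries at 72, 80 and 88 h. These held 4.04 to 5.75 CPM of Ascl2, those at 68, 76 and 92 h 1.10 to 1.62 CPM, and without the former the change was -0.18. The call was also lost in 14 of the 20 fits that leave out a library. Hand1 showed the same alternation, at 3.88 to 4.49 against 1.35 to 2.67 CPM.

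The change to 92 h differed between SFH and S/L for Eomes alone of the 9 (2.00 ± 0.49 higher in SFH on the log2 scale, adjusted p = 0.00385), where 5.3% of all genes were higher and 6.6% lower. Eomes was at a late median of 19.9 CPM in S/L, against 44.8 CPM in SFH. Within S/L its change of -0.57 ± 0.27 did not pass (adjusted p = 0.10), but did without 4 h (-0.83, 0.021) or 80 h (-0.74, 0.014). At the hours both courses share the difference was 1.24 and did not pass (adjusted p = 0.082). Primitive endoderm genes rose in 7 of 7 in each course, while fibroblast genes fell in 6 of 6 in SFH and 5 of 6 in S/L. Their part in the members' changes was not tested.

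In NTF medium, 2 of 9 members rose and 3 fell by 96 h, where 16.7% of all genes rose and 15.3% fell. Tfap2a went from 31.1 CPM at 0 h through 27.7, 14.4, 16.1, 5.40 and 2.11 to 1.75 CPM at 96 h. It fell by 4.01 ± 0.49 (7 libraries, adjusted p = 0.000168), and each library but that at 24 h was below the one before it.

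The other NTF calls were weaker. Gata3 fell by 2.48 ± 0.75 (3.30 CPM at 0 h, 10.9 CPM at 4 h, 1.32 CPM at 96 h, adjusted p = 0.026), a call lost without 4 h (-2.05, adjusted p = 0.065) or 72 h (-2.10, 0.075). Elf5, at 0.24 CPM at 0 h, 2.40 CPM at 10 h and 0 at 96 h, had a fitted change of -8.21 ± 2.09 (adjusted p = 0.012), a size that depends on how the count of 0 is treated, and the call was lost without 10 h (adjusted p = 0.055) or 96 h (0.074). Eomes, at 28.4 CPM at 0 h and 36.4 CPM at 96 h, rose by 1.04 ± 0.33 (adjusted p = 0.033), and Ascl2, at 2.12 and 3.56 CPM, rose by 1.83 ± 0.60 (adjusted p = 0.037). Each of these calls was lost in 5 of the 7 fits that leave out a library. Elf5 peaked at 8 or 10 h in all 3 courses, at 1.62 CPM in S/L, 1.82 CPM in SFH and 2.40 CPM in NTF.

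**Figure D4:**
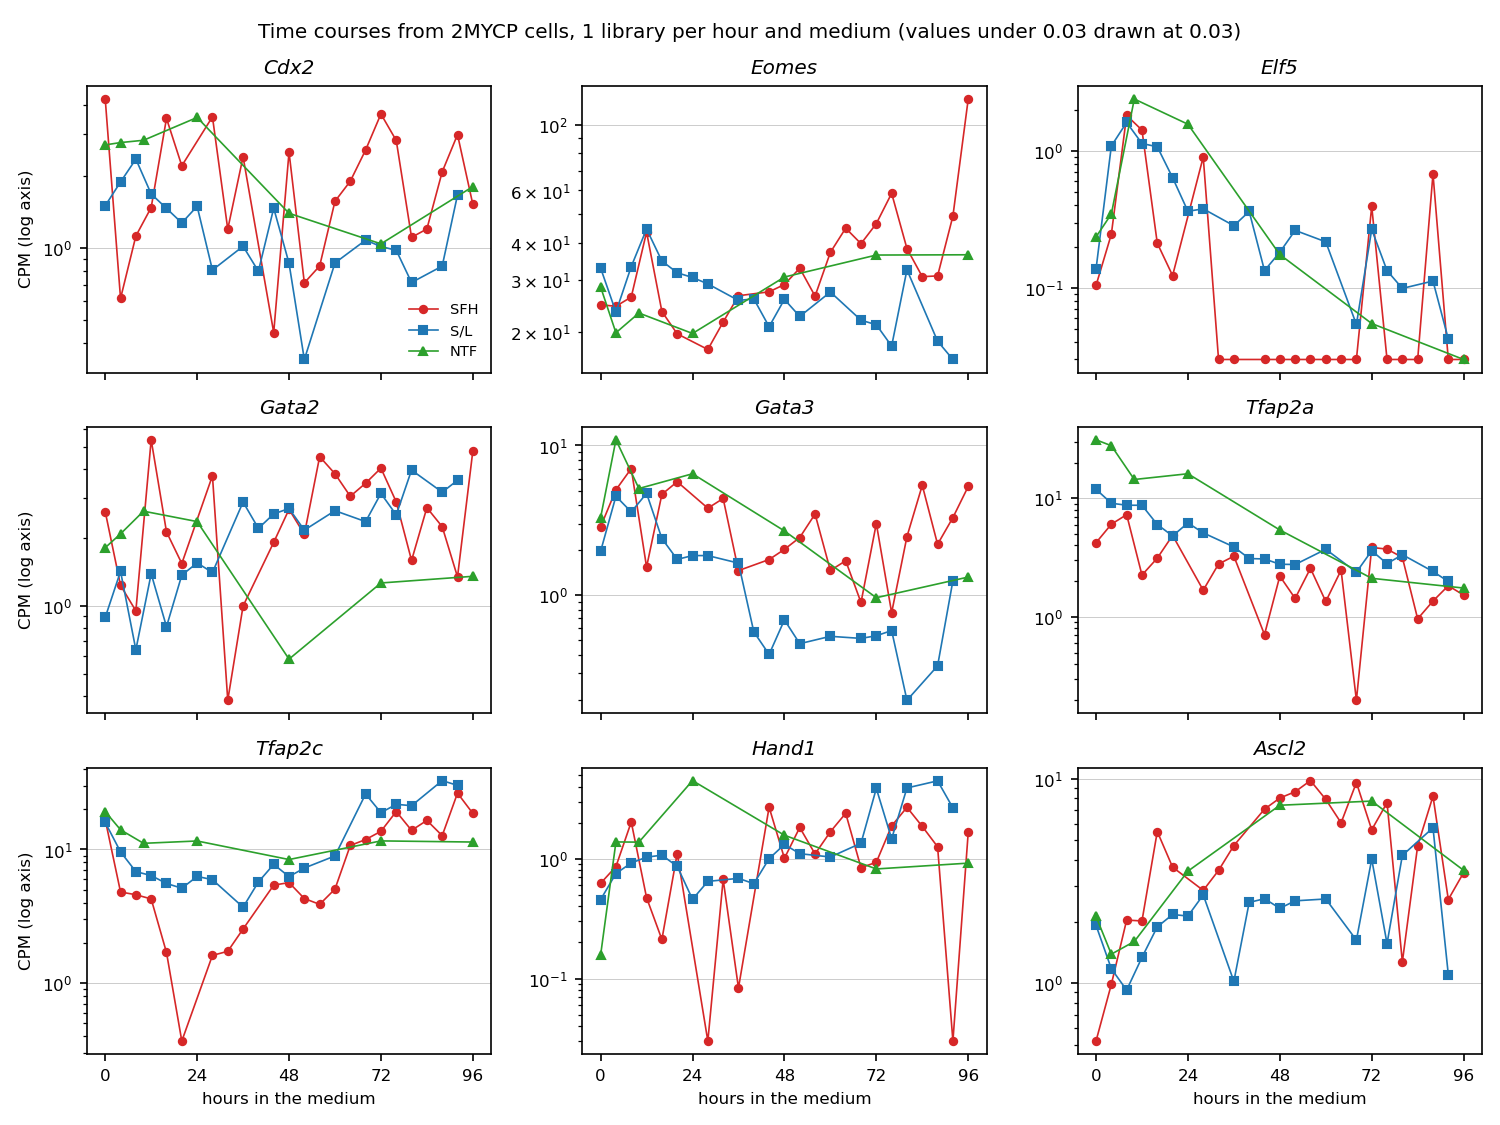
CPM (log axis, values under 0.03 drawn at 0.03) of the 9 factors against hours in SFH, S/L and NTF medium, 1 point a library. Tfap2c dipped to 0.37 CPM in SFH and 3.70 CPM in S/L before its late level, Eomes reached 122 CPM in SFH at 96 h, and Tfap2a in NTF went from 31.1 to 1.75 CPM.

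Elsewhere in the series single factors appeared apart from the rest. Embryoid bodies held Hand1, a mesoderm factor too, at 40.4, 110 and 175 CPM at days 8, 10 and 12 from TC1 cells, and Cdx2 at 10.3 to 11.9 CPM on those days. Lines derived from blastomeres (4 libraries) had Tfap2c at 79.1 to 102 CPM, above every mPSC library, with Cdx2 at 0.07 to 0.48 CPM. Their fibroblast genes summed to 2469 to 3633 CPM, against 414 to 873 CPM in mPSCs, and the part of such cells was not tested. Tfap2a was at 10.3 and 23.9 CPM in the gelatin libraries and at 27.9 CPM with ICG001.

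Across the 26 group means, genes were ranked by Pearson correlation of log2 CPM with each factor, as a description over groups that differ in depth and medium. Vtcn1 was nearest to Gata3 (0.93) and Esx1, a homeobox gene of the placenta, nearest to Ascl2 (0.91). C430049B03Rik was nearest to both Gata2 (0.89) and Hand1 (0.88), and Il17re to Elf5 (0.89). Prkcz, which encodes an atypical protein kinase C of the apical domain, was nearest to Cdx2 (0.86), Tdrp to Tfap2a (0.86), Aldh3b2 to Tfap2c (0.83) and Gja1, a gap junction gene, to Eomes (0.76). Vtcn1, Il17re, Prkcz, Tdrp, Aldh3b2 and Gja1 were all highest in the blastocyst, a group of a single library. How far their correlations lean on that library was not tested. Among the members themselves Gata3 went with Gata2, Cdx2 and Elf5 (0.81 each), Gata2 went against Pou5f1 (-0.88) and Eomes against Ascl2 (-0.57).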

How the data were processed

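Bulk RNA-seq was analysed from 18 deposited tables of raw counts per gene symbol, covering 104 libraries in 26 groups. Per the submitters' processing notes the authors used Trimmomatic, HISAT2 and featureCounts, with the builds mm10 and hg38 named and no versions. The kit, per the labels' protocols, was VAHTS Universal V8, and strand handling is not given in the sources used here. From 64.3% to 90.5% (median 73.7%) of counts between 1 and 50 were even, so halved counts were tried as an alternative. Left out of each table were 26 rows whose names had become dates, leaving 24958 genes, and 0 columns went unused.

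CPM was computed over library totals. The tests were edgeR's quasi-likelihood F tests (version 4.0.16, R 4.3.3) after filterByExpr and TMM scaling, with Benjamini-Hochberg adjustment over all genes tested, a threshold of 0.05, only the groups compared in each fit and no covariate. Dividing a log2 fold change by the root of its F statistic gave its SE. Because TMM scaling differs from library totals, a fold change is not the ratio of printed CPM. Each course was modelled by a natural spline in time (3 degrees of freedom in SFH and S/L, 2 in NTF), and the passage trend on log2(passage + 1). The fitting code was tested on simulated data.

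Named genes were the 9 members and Pou5f1, up to 3 list genes per direction with the largest change past the test, and the genes with the highest correlation of log2(CPM + 1) over group means of at least 5 CPM. The members, the 8 gene lists and the tests were chosen with earlier results of these data known, so nothing here is independent support for a pattern seen before. Libraries without a replicate were given as levels. Alternatives were DESeq2 1.42.0, other scalings, filters, controls and spline settings, leaving out each library, and passage as a block. Intervals and floors cover counting error only and take counts as independent.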

Additional observations from a re-analysis of the deposited data

Results flagged for a closer look

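Of 45 combinations of a member and a group of 4 to 10 libraries, 9 held a library far from the others. The rule marks about 1 in 20 for independent, normally spread replicates. Successive passages and days are not such replicates, so no excess can be read from this count. In ZHBTc4 with doxycycline in 2MYCP, Cdx2 at passage 1 (38.3 CPM, next 5.35) and Ascl2 at passage 1 (113 CPM, next 20.96) stood above the other 3 passages, and Eomes at passage 2 (7.22 CPM, next 4.36) stood above its group. In established 2MYCP, passage 14 had the highest Cdx2 (2.11 CPM, next 0.786) and Gata2 (8.55 CPM, next 5.67). In 2MYC, Cdx2 was highest at passage 5 (0.925 CPM, next 0.251) and Tfap2a lowest at passage 3 (2.13 CPM, next 3.38). In embryoid bodies from TC1 cells, Cdx2 was at 0 CPM on day 3 while the next lowest was 10.3 CPM, and Eomes reached 135 CPM on day 8, next 26.0 CPM.

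Eomes changed differently in SFH and S/L medium, by 2.00 on the log2 scale at 92 h in the test of the difference itself. At the hours both courses share, the difference was 1.24 and did not pass (adjusted p = 0.082). Embryoid bodies entered no comparison. Even their lowest libraries were above the mPSC range for Tfap2a from TC1 cells (4.74 CPM, highest mPSC 3.16) and for Cdx2 from 2MYCP cells (1.59 CPM, highest mPSC 0.912).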

How the results depend on the processing

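Over all alternatives, 1669 values of the members and Pou5f1 kept their sign and their side of the threshold, 135 lost the call and 50 gained one. A further 65, called in neither fit, changed sign, as Cdx2 in ZHBTc4 with doxycycline did, and 3 changed sign with a call in 1 of the fits. The last were Hand1 and Ascl2 against mPSC, which ranged from -1.81 to 1.66 and from -0.78 to 1.14 as each library was left out, and Ascl2 in the S/L course, -0.18 without 72, 80 and 88 h. That setting, the S/L course without 68, 76 and 92 h, the NTF course without 4 and 24 h and the ZHBTc4 control were chosen after seeing the data. Depth limits Elf5 and Cdx2, which sat at a few counts in most libraries, and the groups of 2 to 4 libraries leave wide errors. The causes of the moves below were not tested.

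With DESeq2 the genes called were 4496 against mPSC (2652 with edgeR), 2839 for ZHBTc4 with doxycycline in 2MYC against 2MYCP (578), 489 for TELC against PreLC (0), 2518 for TELC against ZHBTc4 with doxycycline (490) and 2795 for the passage trend (1138). The members called were then 4 against mPSC, 1 for TELC against PreLC and 3 for the trend. With 9 groups in 1 fit, 4523, 988, 4668 and 2511 genes were called for ZHBTc4 in 2MYC, TELC against PreLC, TELC against ZHBTc4 and blastoids, and 0 members against mPSC, 2 for TELC against PreLC and 2 for blastoids. With no filter, 910 genes were called for ZHBTc4 in 2MYC, and 2 members for 2MYCP against 2MYC, the second being Cdx2.

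With other controls, ZHBTc4 with doxycycline gave 7408 genes against 7 2MYCP libraries and 8 genes and 0 members against its S/L library. TELC and blastoids against the 0 h libraries gave 3393 and 4882 genes, and TELC 0 members. The passage trend gave 1824 genes and 0 members with the passage 0 library, and 179 genes and 0 members on the plain passage number. The SFH and S/L difference gave 4998 genes and 2 members with 2 spline degrees of freedom, and 0 members at shared hours. NTF gave 3446 genes and 1 member with 3 degrees of freedom, and 1 member without 4 and 24 h.

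Leaving out each library in turn, the genes called ranged from 756 to 5261 against mPSC (members 0 to 5), from 1059 to 2575 for 2MYCP against 2MYC (members 1 to 2), from 1077 to 6602 for ZHBTc4 with doxycycline, from 0 to 2298 for ZHBTc4 in 2MYC (members 0 to 2), from 3549 to 10085 for TELC against 2MYCP, from 0 to 3404 for TELC against PreLC (members 0 to 3), from 76 to 2436 for TELC against ZHBTc4 (members 1 to 4), from 35 to 1249 for the passage trend (members 0 to 1) and from 2369 to 6022 for NTF (members 2 to 5). In the SFH course members ranged from 1 to 4.

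Correlations of deviations between same-numbered passages ran from 0.0053 to 0.17 for 2MYCP and 2MYC, and between other-numbered ones from -0.22 to 0.20. For ZHBTc4 and 2MYCP they ran from 0.027 to 0.086, and the others from -0.10 to 0.069. For TELC and PreLC they ran from 0.078 to 0.26, above all other-numbered ones (-0.23 to 0.042). They were -0.013 for ZHBTc4 in 2MYC and 2MYCP and 0.32 over only 2 pairs for TELC and ZHBTc4. With 2 libraries a side the other-numbered value is the same with opposite sign, so pairing was not settled there. With passage as a replicate block, 2 members were called for 2MYCP against 2MYC, 1508 genes for ZHBTc4 with doxycycline, 3 members for ZHBTc4 in 2MYC (Gata3, Cdx2 at 4.12 with adjusted p = 0.0029 and Hand1 at -2.83 with 0.019) and 3914 genes for TELC against ZHBTc4.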

Other observations

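Several variants of the 2MYCP culture entered no comparison and held the factors at levels of their own. In 2MYP medium (passages 7 and 8), Eomes was at 10.5 and 9.07 CPM, Tfap2c at 8.78 and 9.26, Gata3 at 0.63 and 0.95, Gata2 at 1.27 and 1.15, and Hand1 at 0.18 and 0.10 CPM, each below the 4 established 2MYCP libraries except Tfap2c. The library labelled Ctnnb1-knock out (passage 7) had 13.6 CPM of Eomes, 10.2 of Gata2, 8.14 of Gata3 and 4.00 CPM of Hand1, the last above all 7 2MYCP libraries. The library with ICG001, a compound that blocks beta-catenin with its co-activator CBP, had 27.9 CPM of Tfap2a and 16.9 CPM of Eomes.

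In embryoid bodies from 2MYCP cells, the libraries labelled days 3, 8, 10 and 12 had Hand1 at 159, 0.52, 276 and 196 CPM, Eomes at 5.51, 68.2, 38.5 and 23.8 CPM and Cdx2 at 1.59 to 20.3 CPM. Elf5 was at or under 0.51 CPM in all 4. No hypothesis was tested on these values.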
